A study of Mus musculus with 4 samples.

Results

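Jak2V617F LSK cells were compared with control LSK cells. LSK is the bone marrow gate for cells without lineage markers that carry Sca-1 and Kit, where blood stem cells and early progenitors are found. The comparison used 2 of the 4 single-cell RNA libraries of the study, chosen by their genotype labels. It covered 22211 of the 37344 cells that passed the barcode filter in all libraries (14156 Jak2V617F and 8055 control cells), and 8405 of the 32285 genes in the files, those with 10 CPM (UMIs of a gene scaled to the UMI total of the library) or more in either library.

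The Jak2V617F mice carried Vav1-iCre/+ and Jak2 V617F flox/+, and the control mice carried Vav1-iCre/+ and no other mutant allele. A further pair served as a second background: double-mutant mice with Vav1-iCre/+, Jak2 V617F flox/+ and Ikk2-CA flox/+, and Ikk2CA mice with Vav1-iCre/+ and Ikk2-CA flox/+, where Ikk2-CA is a constitutively active form of a kinase that switches on NF-κB. Every group thus carried Vav1-iCre, which drives recombination in blood-forming cells. Per the series' design text an EGFP reporter of NF-κB was also crossed into the mice. All mice were 8 to 12 weeks old, and the marrow of 5 mice of a genotype was pooled into 1 library after enrichment of Kit+ cells with beads. A library is therefore a single pooled sample, the spread between mice was not measured, and every ratio below describes these 2 libraries without a p-value.

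JAK2 is the tyrosine kinase bound to the receptors of erythropoietin and several other blood cytokines. On activation it phosphorylates STAT factors, STAT5 above all, which enter the nucleus and switch on target genes, among them the SOCS family and Cish that feed back on the receptor. The V617F change lies in the pseudokinase domain, makes the kinase active without cytokine, and is the common driver mutation of polycythaemia vera, essential thrombocythaemia and myelofibrosis. RAS-MAPK signalling from the same receptors induces immediate early genes such as Fos and Egr1, which are transcribed within minutes of a stimulus, and which also respond to handling of tissue and cells.

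STAT dimers bind the palindrome TTCNNNGAA. Promoters of some of the genes described below were read for it, for the cAMP response element TGACGTCA and for the CArG box of serum response factor. The sequences are RefSeq promoters of GRCm38.p6, 250 bases before to 50 bases after a start site, and both strands were searched. The STAT palindrome was found in 8.47% of the 27025 promoters searched, which do not cover every gene, and in 6.65% of the 6770 that belong to compared genes. The cAMP element was found in 1.88% of all promoters searched and in 3.49% of those of compared genes, and the CArG box in 1.57% and 1.21%. Of the STAT5 targets and feedback genes compared, 9 had a promoter entry, and the palindrome was found in 2 of them, Cish and Socs3. Of the immediate early genes compared, Egr1 was not searched and 17 had a counted entry. Of these 3 held the cAMP element (Btg2, Dusp1 and Ppp1r15a), 2 the STAT palindrome (Zfp36 and Csrnp1) and 1 the CArG box (Zfp36). The stretches of Cish and Socs3 are shown for the palindrome in feedback genes of the pathway, and those of Zfp36 and Dusp1 for the elements in 2 immediate early genes, with the matched bases in capitals, read 5′ to 3′ on the strand of the gene.
Cish (chr9:107296559-107296684, plus strand): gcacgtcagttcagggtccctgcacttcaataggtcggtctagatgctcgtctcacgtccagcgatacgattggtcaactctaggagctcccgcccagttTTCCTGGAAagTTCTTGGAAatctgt
Socs3 (chr11:117969466-117969566, minus strand): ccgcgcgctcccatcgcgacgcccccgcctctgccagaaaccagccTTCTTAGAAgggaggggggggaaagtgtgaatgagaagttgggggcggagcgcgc
Zfp36 (chr7:28379203-28379328, minus strand): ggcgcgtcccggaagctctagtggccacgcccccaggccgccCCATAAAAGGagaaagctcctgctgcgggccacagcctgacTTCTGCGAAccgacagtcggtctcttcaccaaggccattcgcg
Dusp1 (chr17:26508562-26508662, minus strand): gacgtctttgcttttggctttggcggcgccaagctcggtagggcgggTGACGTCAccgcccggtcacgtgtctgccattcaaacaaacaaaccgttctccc
In Cish 2 STAT palindromes lay at bases 0 to 8 and 11 to 19, counted from the start site as 0, and in Socs3 1 lay at bases -154 to -146. A match is a string in the reference and not a measured binding site. The windows of Fos, Fosb, Klf2, Nr4a1 and Per1 held none of the 3 motifs.

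The filter of the study (500 to 7500 genes and under 10% mitochondrial UMIs) kept 90.6% of Jak2V617F and 81.0% of control barcodes, and the mitochondrial limit alone removed 7.57% and 15.1% of them. The kept cells held 182778171 UMIs in Jak2V617F and 102362297 in control, with medians of 11106.5 and 10606 UMIs and of 3272 and 3223 genes per cell. The libraries shared 35 cell barcodes, 0.247% of Jak2V617F and 0.435% of control cells. The pools differed in sex: no UMI of Xist, the RNA of the inactive X chromosome, was found in 99.6% of Jak2V617F cells with at least 5000 UMIs, against 41.5% of such control cells. For that reason the ratio over cells without an Xist UMI is given beside several results below. The sort could be read in the transcripts. After each cell had been thinned to 5000 UMIs, Kit was found in 56.9% of Jak2V617F and 52.1% of control cells, and Ly6a, which encodes Sca-1, in 45.4% and 37.8%. Genes of mature lineages were unequal. The T cell gene Cd3e stood at 0.00547 CPM in Jak2V617F and 0.137 CPM in control, from 1 and 14 UMIs. These few UMIs are not read as a difference in T cells. Gata3, the sole T and NK cell gene compared, had a log2 ratio of 0.27. A cluster led by Xcl1 and Ccl5, described below, held 0.657% of Jak2V617F and 0.348% of control cells. The share of cells with at least 3 T or NK markers was lower in Jak2V617F at 5000 UMIs and higher at 2500 UMIs. The granulocyte marker Ly6g stood at 1.06 CPM in Jak2V617F and 0.977 CPM in control. Granule genes of late neutrophils were present in both, such as S100a9 at 494 CPM in Jak2V617F and 404 CPM in control and Ngp at 125 and 103 CPM.

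The transcriptomes lay close together. At least 2-fold higher in Jak2V617F were 25 of the 8405 genes (0.297%), and at least 2-fold lower were 38 (0.452%). At 1.5-fold the counts were 86 higher (1.02%) and 115 lower (1.37%). Of all compared genes 49.1% had a ratio above 1, the median log2 ratio was -0.004, and the middle 95% of genes lay between -0.45 and 0.39. The lists held part of the genes past 2-fold. Of the 25 higher ones 7 were replication-dependent histones and 5 immediate early genes, and of the 38 lower ones 7 were B cell, 3 lymphoid priming and 2 granulocyte-monocyte genes.

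**Figure D1:**
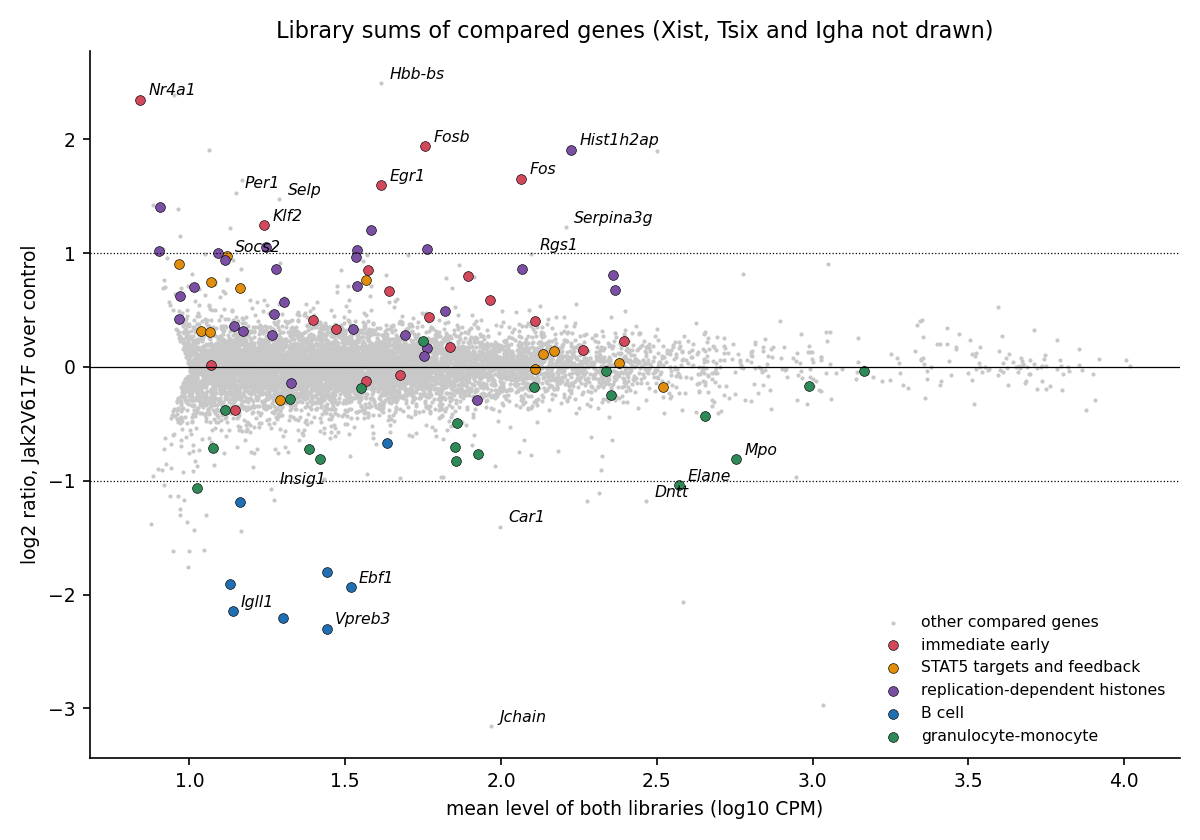
Each point is a compared gene. The x axis is the mean level of both libraries (log10 CPM), and the y axis the log2 ratio of Jak2V617F over control. Dotted lines mark 2-fold, and Xist, Tsix and Igha were left out of the drawing. Immediate early genes (red) and histones (purple) hold many of the highest ratios, and B cell genes (blue) several of the lowest.

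The allele itself could not be read from these counts. Jak2 (mm10 chr19:29251828-29313080) stood at 18.0 CPM in Jak2V617F and 19.8 CPM in control, a ratio of 0.913 (95% interval 0.863 to 0.965). A UMI of Jak2 was found in 8.69% of thinned Jak2V617F cells and 9.57% of control cells. The level sums the mutant and the normal transcript, so it does not check the genotype. The other kinases, STAT factors and brakes of the pathway were near parity as well: 11 of 19 compared genes were above 0 on the log2 scale, none of them past 1.5-fold in either direction, and the median log2 ratio was 0.06. The tyrosine phosphatase Ptpn6 stood at 97.9 CPM in Jak2V617F and 113 CPM in control, a log2 ratio of -0.20. Stat5a and Stat5b, the main STATs downstream of the mutant kinase, stood at 45.6 and 37.3 CPM in Jak2V617F, against 42.8 and 35.8 CPM in control.

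Genes that STAT5 switches on, or that feed back on JAK-STAT signalling, were higher as a group, by modest amounts. Of 17 listed genes 13 were compared, 10 of them above 0, with a median log2 ratio of 0.30 against -0.004 for all genes. Past 1.5-fold were 5, all higher in Jak2V617F, where the background is 1.02% of genes. Socs2, which restrains cytokine and growth hormone receptors (mm10 chr10:95385362-95417180), stood at 17.5 CPM in Jak2V617F and 8.89 CPM in control, a ratio of 1.97 (1.83 to 2.12). Socs3, the feedback inhibitor of gp130 and G-CSF receptors, stood at 12.1 CPM in Jak2V617F and 6.46 CPM in control. Pim2, a survival kinase, stood at 14.7 and 8.74 CPM, and Ccnd1, the D-type cyclin of the G1 phase, at 46.4 and 27.3 CPM. Cish, the gene with 2 palindromes at its start site, stood at 18.0 CPM in Jak2V617F and 11.1 CPM in control, a ratio of 1.62 (1.51 to 1.73).

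The rest of the STAT5 list was closer to parity. The survival gene Bcl2l1 had a log2 ratio of 0.31 and Socs1 one of 0.30. Myc (155 CPM in Jak2V617F and 140.4 CPM in control), Mcl1, Ccnd2 and Ccnd3 lay between -0.02 and 0.14. The other Pim kinases went the other way by less than 1.5-fold: Pim1 stood at 310.1 CPM in Jak2V617F and 351 CPM in control, and Pim3 at 17.6 and 21.4 CPM. The remaining members were under 10 CPM in both libraries. Id1, an inhibitor of differentiation factors, stood at 5.37 CPM in Jak2V617F and 2.33 CPM in control, the cytokine gene Osm at 5.97 and 4.21 CPM, the repressor Bcl6 at 2.42 and 3.61 CPM, and the interleukin-2 receptor gene Il2ra at 0.219 and 0.0879 CPM.

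The higher feedback genes were found in more cells, with little difference in UMIs per positive cell. After thinning to 5000 UMIs, Socs2 was found in 8.33% of Jak2V617F cells and 4.10% of control cells, Cish in 8.93% and 6.22%, Pim2 in 7.85% and 4.59%, and Socs3 in 6.29% and 3.74%. Unthinned, Socs2 was found in 15.4% of Jak2V617F and 7.49% of control cells. Cells with a Socs2 UMI held on average 1.21 UMIs of it in each library. Cells under 5000 UMIs were left out of the thinned shares, 9.61% of Jak2V617F and 10.4% of control cells. In granulocyte-monocyte-like cells, where these genes were low, Cish was found in 1.26% of Jak2V617F and 1.12% of control cells. That class held 245 Jak2V617F and 233 control cells before thinning, so these shares rest on very few positive cells.

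The feedback genes were compared within clusters of cells, built without immediate early, histone, globin, sex-linked, mitochondrial and ribosomal protein genes. The STAT5 list was not among those left out. Of 26 clusters 17 held at least 100 cells of each library, and the median of the STAT5 list was above 0 in 16 of them. In megakaryocyte-like cells, named for Pf4, Itga2b and Gp5 among their leading genes, Socs2 stood at 26.3 CPM in Jak2V617F and 8.01 CPM in control, Cish at 24.1 and 9.45 CPM, and Pim2 at 12.7 and 4.17 CPM. The log2 ratios there were 1.72, 1.35 and 1.61, each above the value over the whole library. Of the 20 leading genes of these clusters 9 differed by 1.5-fold or more between the libraries, so the cells compared may not be alike. Over cells without an Xist UMI the log2 ratio was 1.49 for Socs2 and 1.06 for Cish, against 0.98 and 0.69 in all kept cells. In lymphoid-primed-like cells, named for Dntt and Satb1 in a cluster also led by Wfdc17 and Ccr9, Socs2 was almost level, at 2.28 CPM in Jak2V617F and 2.17 CPM in control, while Socs3 stood at 32.4 and 14.2 CPM and Pim2 at 19.05 and 8.69 CPM. Stem cell-like cells had log2 ratios of 0.95 for Socs2, 1.87 for Socs3, 0.57 for Cish and 0.79 for Pim2. Pim2 is itself a leading gene of c0, a stem cell-like cluster, and 7 of the 20 leading genes of this class differed by 1.5-fold or more. In granulocyte-monocyte-like cells Cish had a log2 ratio of 1.66 at low levels, 4.07 CPM in Jak2V617F and 1.29 CPM in control. Among these 4 classes the ratio of Socs2 was highest in megakaryocyte-like cells, and those of Socs2 and Cish were lowest in lymphoid-primed-like cells. Some of these ratios rested on few UMIs. Lymphoid-primed-like cells held 0.438% of 3195 Socs2 UMIs in Jak2V617F and 2.20% of 910 in control. Granulocyte-monocyte-like cells held 0.760% of 3288 Cish UMIs in Jak2V617F and 0.615% of 1138 in control. Ratios within classes have no interval, so their order is not read as a difference between cell types.

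The immediate early genes were among the groups with the highest medians. Of 28 listed genes 20 were compared, 17 of them above 0, with a median log2 ratio of 0.42. Past 1.5-fold were 9 and past 2-fold were 5, all higher in Jak2V617F, where 1.02% and 0.297% of genes are. Fos, an AP-1 subunit (mm10 chr12:85473890-85477273), stood at 176 CPM in Jak2V617F and 55.7 CPM in control, a ratio of 3.15 (3.06 to 3.24). Its partner gene Fosb stood at 90.7 CPM in Jak2V617F and 23.6 CPM in control, a ratio of 3.84 (3.68 to 4.01). Egr1, a zinc finger factor that in mice is linked to stem cell quiescence, stood at 62.1 and 20.5 CPM, a ratio of 3.02 (2.89 to 3.17).

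Nr4a1, an orphan nuclear receptor, stood at 11.6 CPM in Jak2V617F and 2.28 CPM in control, a ratio of 5.10 (4.45 to 5.86). Klf2, a Krüppel-like factor, stood at 24.4 and 10.3 CPM, and Dusp1, the phosphatase that turns off MAP kinases and whose promoter holds the cAMP element, at 48.0 and 26.6 CPM. Zfp36, which encodes an RNA-destabilising protein and is named here for its promoter after its value was seen, stood at 99.4 and 56.96 CPM. Not every member was higher. Csrnp1, also named after its value was seen, had the lowest log2 ratio of the list, -0.37, although its promoter holds a STAT palindrome.

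Both more cells and more UMIs per cell carried these transcripts. Fos was found in 44.4% (43.5 to 45.3) of thinned Jak2V617F cells and 21.96% (21.0 to 22.9) of control cells, and in 62.3% and 35.4% unthinned. Positive cells held 2.43 UMIs of Fos in Jak2V617F and 1.49 in control. The lowest shares among 5 named classes were in granulocyte-monocyte-like cells, 16.7% in Jak2V617F and 3.93% in control. Fosb was found in 27.8% of Jak2V617F and 9.66% of control cells, Egr1 in 21.0% and 8.88%, and Nr4a1 in 5.89% and 1.16%. The 1% of cells with the most Fos held 8.15% of its UMIs in Jak2V617F and 11.4% in control, so the difference did not rest on a few cells.

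The difference was spread over the clusters. The median of the immediate early list was above 0 in 17 of 17 clusters, between 0.16 and 0.93, and Fos, Fosb and Nr4a1 were past 1.5-fold in 17 of 17. In lymphoid-primed-like cells Fos stood at 246 CPM in Jak2V617F and 74.0 CPM in control. In megakaryocyte-like cells it stood at 132 and 37.0 CPM, and in granulocyte-monocyte-like cells at 44.8 and 13.5 CPM. The fold was thus similar in classes whose levels differed. Stem cell-like cells had a log2 ratio of 2.03, but Fos and Fosb are themselves among the leading genes of c0, the larger of the 2 stem cell-like clusters. Over cells without an Xist UMI the log2 ratio of Fos was 1.38 and that of Fosb 1.56, against 1.66 and 1.94 in all kept cells.

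Regulators close to the immediate early response differed among themselves. Rgs1, a brake on G-protein-coupled chemokine receptors, stood at 166 CPM in Jak2V617F and 83.6 CPM in control and was found in 45.5% and 29.97% of cells. Etv5, an ETS factor induced by RAS-MAPK signalling, stood at 11.2 and 5.76 CPM. Spry2, a feedback inhibitor of the same pathway, went the other way, at 7.46 CPM in Jak2V617F and 13.6 CPM in control, and was lower in 17 of 17 clusters. Of the 6 compared RAS-MAPK feedback genes 5 were above 0, with a median log2 ratio of 0.21. At 1.5-fold they shared no direction, with 1 higher and 1 lower. Of 18 compared NF-κB targets 9 were above 0, with a median of 0.02. Past 1.5-fold were 4, all higher in Jak2V617F, where 1.02% of genes are. They were Nfkbiz (16.7 and 9.82 CPM), Ccl5 (15.1 and 8.98 CPM), Bcl3 and Tnfaip2. Ccl5 is also a leading gene of the cluster led by Xcl1, which held 0.657% of Jak2V617F and 0.348% of control cells. The part of that cluster in the ratio of Ccl5 was not tested. Over cells without an Xist UMI the log2 ratio of Ccl5 was 1.77, against 0.75 in all kept cells.

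**Figure D2:**
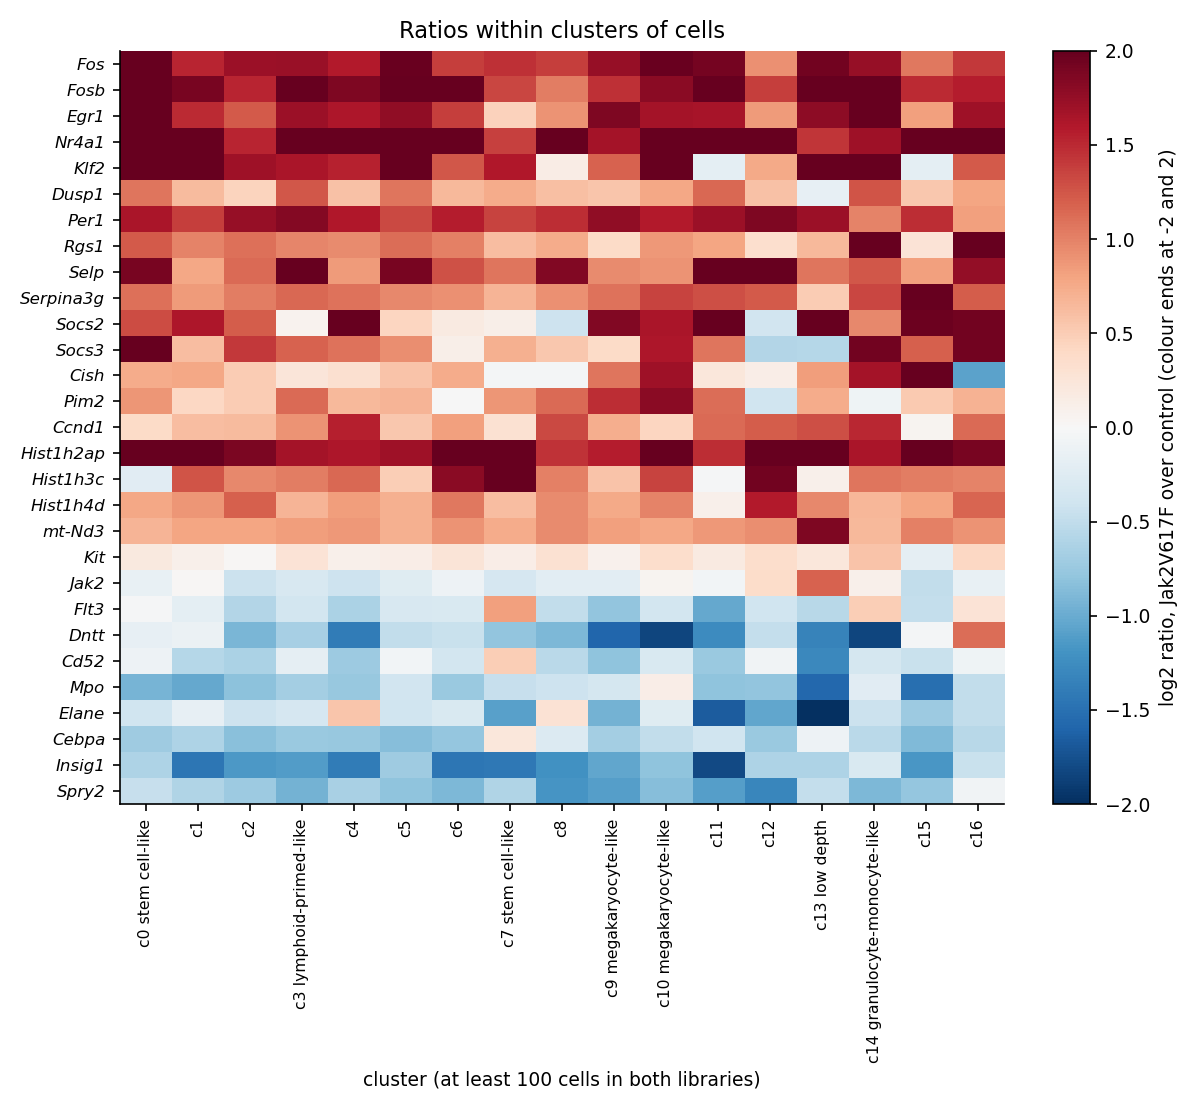
Rows are genes and columns the 17 clusters with at least 100 cells in both libraries; colour is the log2 ratio of Jak2V617F over control within the cluster, ended at -2 and 2. Fos, Fosb and Nr4a1 are red in every column, Socs2 and Cish vary between columns, and Insig1 and Spry2 are blue in every column.

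Several genes outside these lists were among the 15 highest ratios. Per1, the period gene that is both a clock component and inducible by glucocorticoid and cAMP, stood at 21.0 CPM in Jak2V617F and 7.25 CPM in control, a ratio of 2.89 (2.67 to 3.14), and was past 1.5-fold in 17 of 17 clusters. Of the 9 compared clock genes 7 were below 0, with a median log2 ratio of -0.34, among them the output factor Dbp (12.3 CPM in Jak2V617F and 18.1 CPM in control). Serpina3g, a protease inhibitor gene of early progenitors (mm10 chr12:104236245-104241939), stood at 226 CPM in Jak2V617F and 96.2 CPM in control, a ratio of 2.35 (2.30 to 2.4001). It was found in 56.4% of Jak2V617F cells and 32.5% of control cells, and in 17 of 17 clusters it was higher. Its close copies in the Serpina3 family can share reads with it, so the gene within the family is uncertain.

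Selp, which encodes the adhesion molecule P-selectin of platelets and endothelium (mm10 chr1:164115264-164150026), stood at 28.5 CPM in Jak2V617F and 10.3 CPM in control, a ratio of 2.78 (2.60 to 2.97). It was found in 13.1% of Jak2V617F cells and 4.75% of control cells, and in granulocyte-monocyte-like cells in 2.51% and 3.37%. The latter class held 245 Jak2V617F and 233 control cells before thinning, so these shares rest on few cells. They are not read as a reversal, since the summed UMIs of that cluster were higher in Jak2V617F. The higher level of Selp was not confined to megakaryocyte-like cells, where it stood at 27.1 CPM in Jak2V617F and 14.4 CPM in control. In lymphoid-primed-like cells it stood at 37.8 and 8.26 CPM, and it was past 1.5-fold in 17 of 17 clusters. Over cells without an Xist UMI its log2 ratio was 2.05, against 1.47 in all kept cells.

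The other megakaryocyte and platelet genes did not follow Selp. Of 13 compared 5 were above 0, with a median log2 ratio of -0.04, and Selp was the sole one past 1.5-fold. Mmrn1, a platelet granule protein gene, stood at 11.7 CPM in Jak2V617F and 17.2 CPM in control. Within megakaryocyte-like cells 12 of the 13 genes were lower in Jak2V617F, with a median log2 ratio of -0.36. Cells with at least 3 of 7 megakaryocyte markers made up 3.33% (3.03 to 3.66) of thinned Jak2V617F cells and 3.24% (2.85 to 3.68) of control cells. The megakaryocyte-like clusters held 8.24% (7.80 to 8.71) of Jak2V617F and 4.87% (4.41 to 5.36) of control cells, but 9 of their 20 leading genes differed by 1.5-fold or more between the libraries within them, so their sizes cannot be compared.

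The stem cell genes were nearly level. Of 15 compared 10 were above 0 and none was past 1.5-fold, with a median log2 ratio of 0.15. With the clusters weighted by class as in control the median was -0.03. Gata2, a factor required for stem cell survival, stood at 84.1 CPM in Jak2V617F and 61.2 CPM in control, Mecom at 50.8 and 43.4 CPM, and Hoxa9 at 62.8 and 87.5 CPM. Cells with at least 3 of 8 stem cell markers made up 26.6% (25.8 to 27.3) of thinned Jak2V617F cells and 26.5% (25.4 to 27.5) of control cells. The stem cell-like clusters held 24.2% (23.5 to 24.9) of Jak2V617F and 16.2% (15.4 to 17.0) of control cells, but 7 of their 20 leading genes differed by 1.5-fold or more within them, so their sizes cannot be compared either. Hoxb2 stood apart from the other Hox genes, at 11.2 CPM in Jak2V617F and 4.17 CPM in control, and was higher in 16 of 17 clusters. Slamf1, the SLAM family marker of stem cells, stood at 8.21 and 4.15 CPM.

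Replication-dependent histone genes had a higher median than the immediate early genes. Of 67 listed 30 were compared, 28 of them above 0, with a median log2 ratio of 0.69. Past 1.5-fold were 17 and past 2-fold were 7, all higher in Jak2V617F, where 1.02% and 0.297% of genes are. Hist1h2ap (mm10 chr13:21833026-21833507) stood at 265 CPM in Jak2V617F and 70.4 CPM in control, and the histone H3 gene Hist1h3c at 53.4 and 23.3 CPM. Hist1h2ap was found in 37.97% of Jak2V617F cells and 16.5% of control cells. These transcripts end without a poly(A) tail in most cells, and the genes are near-identical copies, so the level of a single one is uncertain.

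Other genes of DNA replication differed far less. Of 36 S phase genes 28 were above 0, with a median log2 ratio of 0.12 and none past 1.5-fold, and of 48 G2 and M phase genes 31 were above 0, with a median of 0.04. The replication helicase gene Hells stood at 98.5 CPM in Jak2V617F and 74.1 CPM in control. The median of the histone list was above 0 in 16 of 17 clusters, and in stem cell-like cells Hist1h2ap still had a log2 ratio of 2.15. Genes of MYC-driven ribosome assembly were shifted together by small amounts: 29 of 33 were above 0, with a median of 0.15 and none past 1.5-fold.

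The 13 protein genes of the mitochondrial genome had a median log2 ratio of 0.22, with 11 above 0, and the median was above 0 in 17 of 17 clusters. They were unequal. The complex I genes mt-Nd6 (47.1 CPM in Jak2V617F and 24.8 CPM in control) and mt-Nd3 (764 and 433 CPM) were past 1.5-fold, while the complex IV gene mt-Co1 (5714 and 4568 CPM) was not. The median share of mitochondrial UMIs per kept cell was 4.73% in Jak2V617F and 4.33% in control, and with all deposited barcodes the list had a median of 0.09. The part that the mitochondrial limit played in this difference was not tested. The 75 nuclear genes of oxidative phosphorylation had a median of 0.06.

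**Figure D3:**
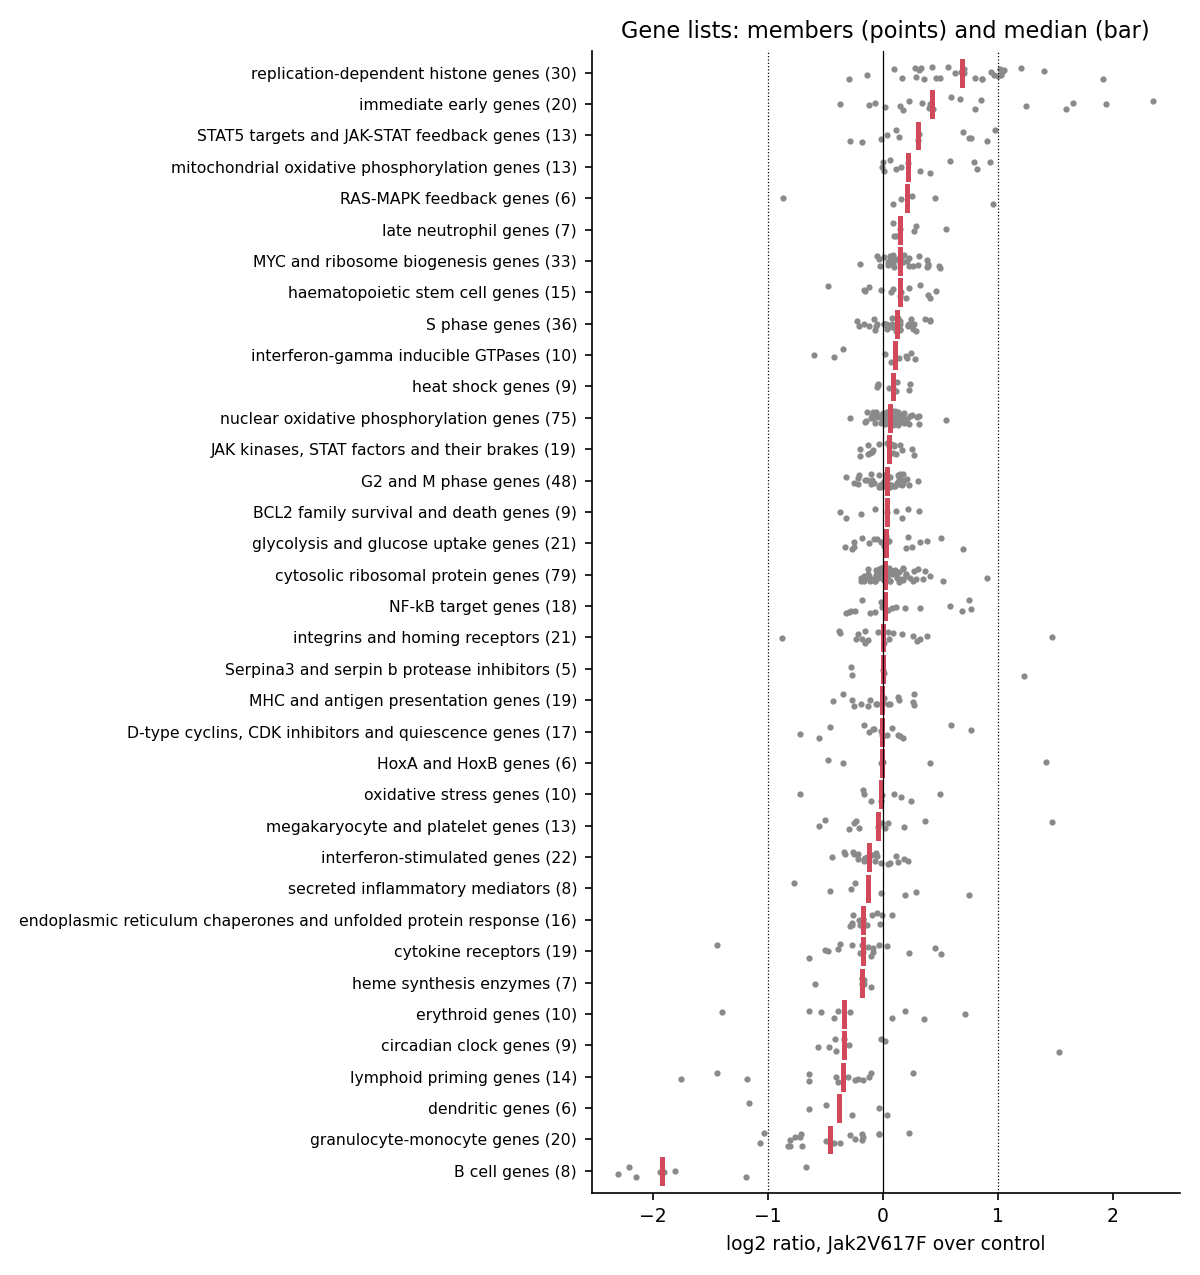
Each row is a gene list with the number of compared members in brackets; grey points are members at their log2 ratio of Jak2V617F over control, the red bar is the median, and dotted lines mark 2-fold. Of the lists drawn, histones and immediate early genes stand at the top and B cell genes, with a median of -1.92, at the bottom.

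Lymphoid priming genes were lower in Jak2V617F. Of 14 compared 13 were below 0, with a median log2 ratio of -0.35, and 5 were past 1.5-fold, all lower, where the background is 1.37% of genes. Dntt, the template-free DNA polymerase of early lymphoid cells (mm10 chr19:41029275-41059525), stood at 179 CPM in Jak2V617F and 405 CPM in control, a ratio of 0.441 (0.435 to 0.448). Flt3, the cytokine receptor that marks lymphoid-primed progenitors, stood at 92.3 and 144 CPM, a ratio of 0.642 (0.628 to 0.656). Il7r, the interleukin-7 receptor, stood at 7.91 and 21.5 CPM, and Cd52, a surface glycoprotein, at 177 and 276 CPM.

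Fewer cells carried these transcripts. Dntt was found in 23.5% of thinned Jak2V617F cells and 37.2% of control cells, and positive cells held 3.81 and 5.71 UMIs of it. In megakaryocyte-like cells, which should lack it, Dntt was found in 3.93% of Jak2V617F and 6.61% of control cells. Cells with at least 3 of 7 lymphoid-primed markers made up 32.3% (31.4 to 33.1) of Jak2V617F cells and 47.6% (46.4 to 48.7) of control cells. Within lymphoid-primed-like cells the gap was smaller: Dntt stood at 512 CPM in Jak2V617F and 808 CPM in control, Flt3 at 232 and 299 CPM, and the list as a whole had a median log2 ratio of -0.10 with 3 of 12 members above 0. Over the library sums, fewer cells of a type and less RNA per cell cannot be told apart.

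B cell genes were the lowest list. All 8 compared genes were below 0 and past 1.5-fold, where the background is 1.37% of genes, with a median log2 ratio of -1.92. The B lineage factor Ebf1 stood at 13.6 CPM in Jak2V617F and 52.2 CPM in control, and the surrogate light chain gene Vpreb3 at 9.32 and 45.9 CPM. Ebf1 was found in 0.899% of Jak2V617F cells and 3.49% of control cells. Most of its UMIs were in B cell-like cells, 88.7% in Jak2V617F and 89.6% in control. Cells with at least 3 of 7 B cell markers made up 0.531% (0.413 to 0.673) of Jak2V617F and 1.97% (1.66 to 2.32) of control cells. Weighted by class as in control, the median of the list was -0.57 and the log2 ratio of Ebf1 -0.50, against -1.94 unweighted. Within B cell-like cells all 8 genes were again lower, with a median of -0.30.

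Apart from sex-linked and antigen receptor genes, the lowest ratio, 0.113, was that of Jchain, the joining chain of secreted antibodies, at 18.8 CPM in Jak2V617F and 167 CPM in control. It came from very few cells: plasma cell-like cells, 10 in Jak2V617F and 19 in control, held 96.5% and 97.2% of its UMIs, and with every cell given equal weight its log2 ratio was -2.21, against -3.15 from the sums. Such cells lie outside the LSK phenotype. The share of thinned cells with at least 3 plasma cell markers, 0.445% in Jak2V617F and 3.08% in control at 5000 UMIs and 0.165% and 0.921% at 2500 UMIs, covers many more cells than these clusters, has no background share beside it and is not read as a share of plasma cells. Macrophage markers moved the same way: none of the macrophage genes reached 10 CPM, their summed level was 14.2 CPM in Jak2V617F and 34.7 CPM in control, and cells with at least 3 of 5 markers made up 0.109% and 0.610%. Stromal and endothelial genes summed to 3.93 and 4.48 CPM.

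Granulocyte-monocyte genes were lower too. Of 20 compared 19 were below 0, with a median log2 ratio of -0.46. Past 1.5-fold were 9, all lower, where the background is 1.37% of genes. Elane, neutrophil elastase (mm10 chr10:79886247-79888215), stood at 245 CPM in Jak2V617F and 502 CPM in control. Mpo, myeloperoxidase, stood at 412 and 721 CPM, and Cebpa, the factor that commits cells to the granulocyte line, at 19.1 and 33.4 CPM.

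These genes did not all behave alike across cells. Elane UMIs came mostly from granulocyte-monocyte-like cells, 78.1% in Jak2V617F and 80.8% in control, and within those cells Elane stood at 5692 and 7652 CPM, a log2 ratio of -0.43 against -1.04 over the libraries. That cluster held 1.73% (1.52 to 1.96) of Jak2V617F and 2.89% (2.54 to 3.28) of control cells, and 1 of its 10 leading genes differed by 1.5-fold or more within it. Cells with at least 3 of 7 granulocyte-monocyte markers made up 16.9% (16.3 to 17.6) of Jak2V617F and 16.1% (15.2 to 16.9) of control cells at 5000 UMIs, but 9.77% and 10.9% at 2500 UMIs, so this share had no steady direction. Over cells without an Xist UMI the log2 ratio of Elane was -0.59 and that of Mpo -0.52, and weighted by class as in control they were -0.45 and -0.41, so the 1.5-fold call of Mpo ended under both and that of Elane under the weighting. Cebpa was lower in 16 of 17 clusters and stood at 29.95 CPM in Jak2V617F and 49.9 CPM in control within lymphoid-primed-like cells. Mpo was lower in 16 of 17 clusters as well. The late neutrophil genes such as Ltf were slightly higher over the libraries (7 of 7 above 0, median 0.15), but their UMIs lay in few cells, and with lineage clusters left out the median was -0.74.

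Erythroid genes showed opposite values for globins and for the rest. Hbb-bs, an adult beta globin (mm10 chr7:103826534-103828096), had the highest ratio of the genes at 20 CPM or more that could be named, at 69.9 CPM in Jak2V617F and 12.4 CPM in control. It was nevertheless found in 2.83% of thinned Jak2V617F cells and 3.19% of control cells, and the 1% of cells with the most held 94.3% and 66.0% of its UMIs. A single Jak2V617F cell held 3272 UMIs of it and no control cell more than 261. With all deposited barcodes the log2 ratio turned to -0.30, and with lineage clusters left out it was 0.86, against 2.496 in kept cells. Other settings raised it, to 3.14 in thinned cells, 3.16 with every cell given equal weight and 3.38 weighted by class as in control. The globin ratio of 5.64 thus rested on a small share of Jak2V617F cells, but it did not shrink when cells were given equal weight.

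Early erythroid genes were lower in Jak2V617F. Car1, a carbonic anhydrase of erythroid progenitors, stood at 54.3 CPM in Jak2V617F and 144 CPM in control, and Klf1, the erythroid master factor, at 7.34 and 11.5 CPM. The 1% of cells with the most Car1 held 92.9% of its UMIs in Jak2V617F and 86.4% in control. With lineage clusters left out the log2 ratio of Car1 was -0.85, against -1.40 in all kept cells. The log2 ratio of Klf1, -0.64, was -0.14 over cells without an Xist UMI, -0.13 with lineage clusters left out, -0.20 in thinned cells and -0.46 weighted by class, each short of 1.5-fold. The transferrin receptor gene Tfrc went the other way, at 37.0 and 22.6 CPM. Of 10 compared erythroid genes 4 were above 0, with a median log2 ratio of -0.34, and the 7 heme synthesis enzymes were all below 0, with a median of -0.18 and 1 past 1.5-fold, Alas1, whose log2 ratio of -0.59 was -0.36 over cells without an Xist UMI. Cells with at least 3 of 6 erythroid markers made up 1.2505% (1.07 to 1.46) of Jak2V617F and 1.93% (1.62 to 2.27) of control cells.

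Insig1, which holds sterol synthesis in check, was among the 15 lowest ratios without belonging to a lineage. It stood at 11.8 CPM in Jak2V617F and 24.8 CPM in control, a ratio of 0.477 (0.450 to 0.505), was found in 6.04% and 12.2% of cells, and was lower in 17 of 17 clusters. Interferon-stimulated genes were slightly lower (16 of 22 below 0, median -0.12, none past 1.5-fold). Genes of the unfolded protein response were lower in a narrow range, with 15 of 16 below 0, a median of -0.17 and none past 1.5-fold.

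**Figure D4:**
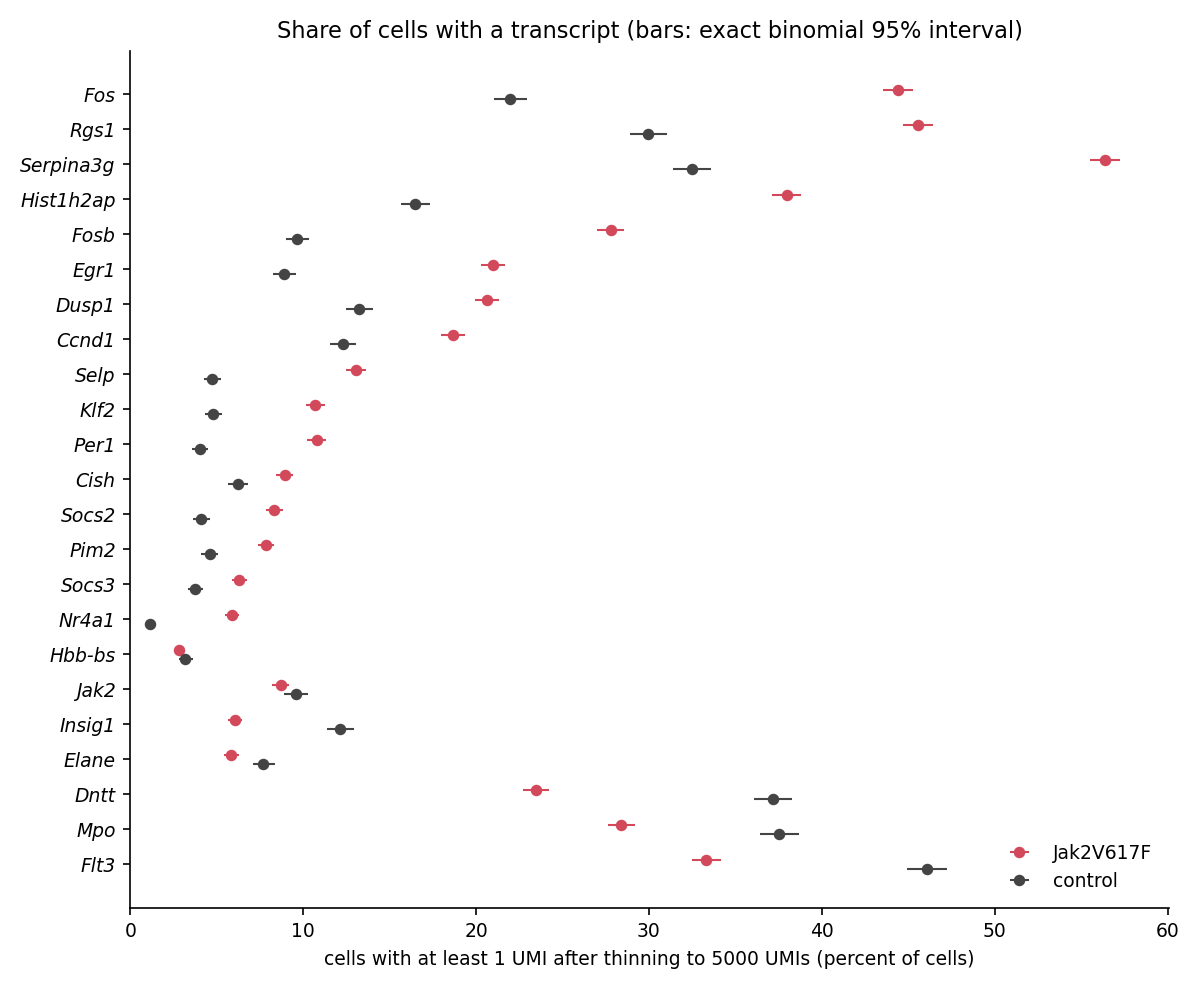
For each gene the share of cells with at least 1 UMI after thinning to 5000 UMIs is drawn in percent, with Jak2V617F in red above control in dark grey and exact binomial 95% intervals as bars. Fos, Serpina3g and Selp were found in more Jak2V617F cells, Dntt and Flt3 in fewer, and Hbb-bs in about the same share.

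The same allele was also present on a second background. The double mutant and Ikk2CA differ by Jak2 V617F and share no library with the pair above. Of the 25 genes at least 2-fold higher in Jak2V617F, 23 were compared there, and 4 were higher and 19 lower in the double mutant. Of the 38 genes at least 2-fold lower, 31 were compared, and 24 were lower and 7 higher in the double mutant. Of all 7621 genes compared in both pairs, 55.4% were higher and 44.6% lower in the double mutant. Across 7621 genes the log2 ratios of both pairs had a Pearson correlation of 0.21 and a Spearman correlation of 0.09, a description across genes that share depth and are not independent.

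The immediate early genes pointed the opposite way there. None of them was higher in the double mutant than in Ikk2CA, with a median log2 ratio of -1.49, and Fos stood at 56.4 CPM in the double mutant and 411 CPM in Ikk2CA. Ikk2CA had the highest Fos level of the 4 libraries, while the double mutant was near control. Histone genes also went the other way, with 3 of 30 above 0 and a median of -0.35.

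The STAT5 targets and feedback genes did not keep their direction as a list, with 6 of 13 above 0 and a median of -0.03 for the double mutant over Ikk2CA. Ccnd1 was lower there, at 52.6 CPM in the double mutant and 70.6 CPM in Ikk2CA. Several single genes kept their direction. Socs2 stood at 24.6 CPM in the double mutant and 11.4 CPM in Ikk2CA, Cish at 8.98 and 7.08 CPM, and Pim2 at 6.61 and 4.88 CPM, whereas Socs3 stood at 5.20 and 8.95 CPM. Selp stood at 14.5 CPM in the double mutant and 4.87 CPM in Ikk2CA, Serpina3g at 252 and 141 CPM, Hoxb2 at 9.92 and 3.39 CPM, and Slamf1 at 6.05 and 2.56 CPM. Dntt stood at 129 CPM in the double mutant and 342 CPM in Ikk2CA, and Car1 at 16.1 and 90.4 CPM. Elane was level, at 199.6 and 189 CPM. Whether the effects of the allele differ between the backgrounds was not tested, as each genotype is 1 library.

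**Figure D5:**
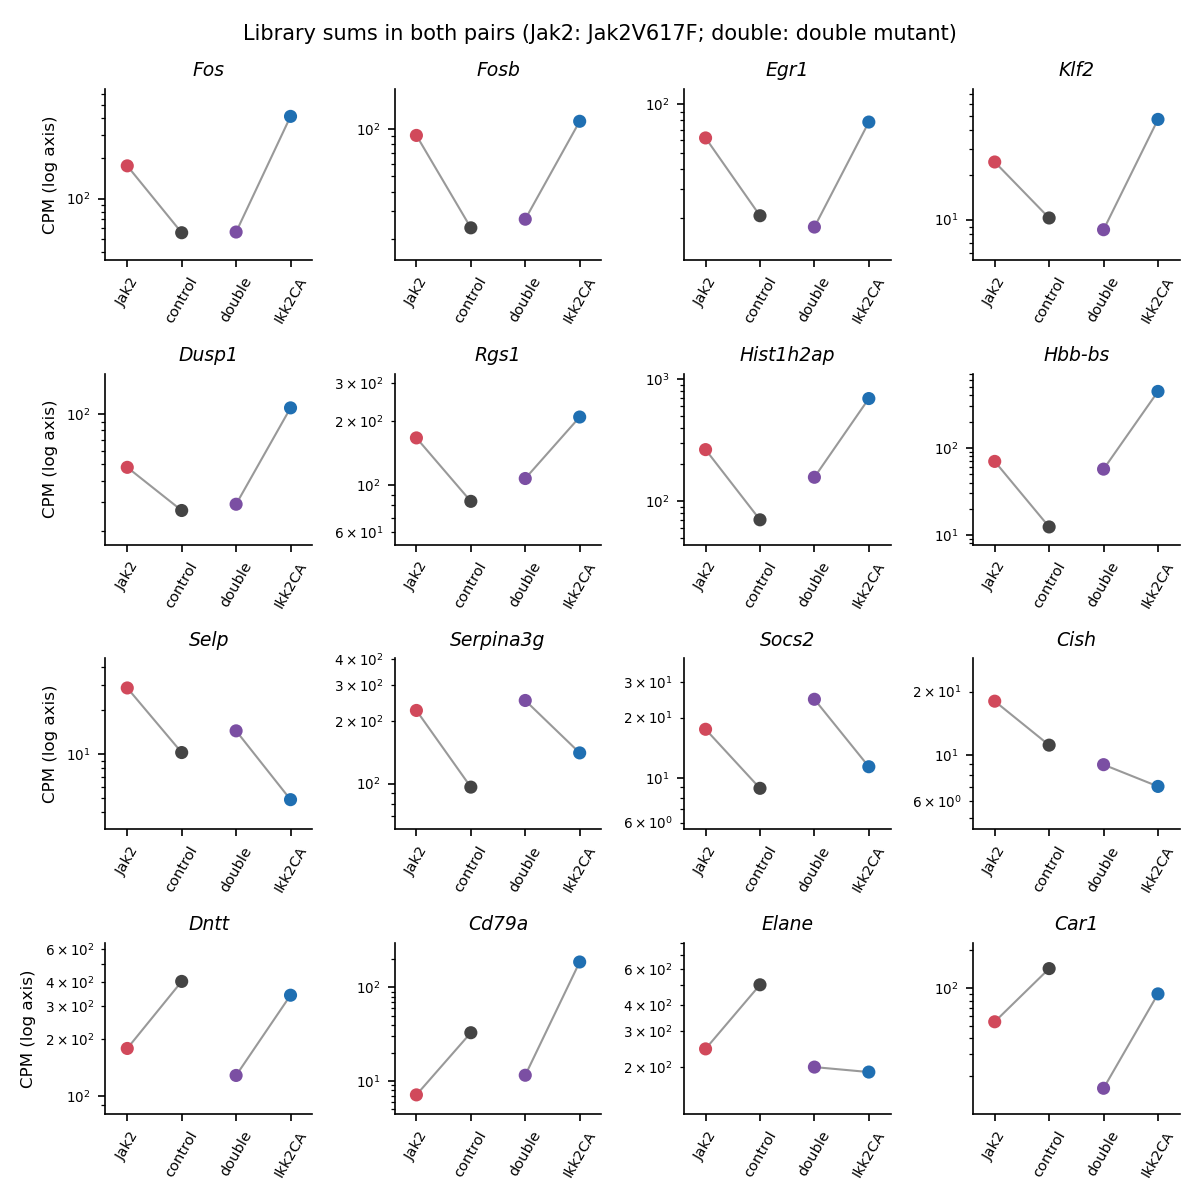
Levels of 16 genes in CPM on log axes, with Jak2V617F left of control and the double mutant left of Ikk2CA; lines join the libraries that differ by Jak2 V617F. Lines slope the same way in both pairs for Selp, Serpina3g, Socs2, Cish, Dntt, Cd79a and Car1, and in opposite ways for Fos, Fosb, Egr1, Klf2, Dusp1, Rgs1, Hist1h2ap and Hbb-bs.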

How the data were processed

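Per the file headers, the deposited values are counts, whole UMIs per gene and barcode, not normalised, written by Cell Ranger 4.0.0; the design text names Cell Ranger 3.0.1. The submitters' processing notes name mm10 and Seurat 4.0.0. The groups, gene lists, markers and comparisons were chosen with earlier results of these data known.

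Barcodes were kept by the filter of the design text. UMIs were summed per gene over kept cells and scaled to CPM of the library. With 1 library per genotype, ratios have exact conditional binomial and shares exact binomial (Clopper-Pearson) 95% intervals, which cover counting error only; no p-value is given. A gene at 0 UMIs was put at a floor of 3 UMIs. Candidates for naming had 20 CPM or more in either library and were not mitochondrial, ribosomal protein, unnamed, antigen receptor or sex-linked genes; the 15 highest and 15 lowest ratios, up to 6 members of each of 45 lists, and all sort marker, sex-linked, JAK-STAT and STAT5 feedback genes could be named.

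Both libraries were clustered together by Leiden at resolution 1, on a graph of 15 neighbours in 30 principal components of 2000 variable genes, leaving out immediate early, histone, globin, sex-linked, mitochondrial, ribosomal protein, antigen receptor and unnamed genes. Clusters were named from at least 3 listed markers among the 25 leading genes; c0 and c7 are the stem cell-like ones. Scrublet called 0 cells, so it did not work, and doublets were kept in the main values. A cluster with Gm42418 and Lars2 among its leading genes, with a median depth of 0.142 of its library's median UMIs, was left out as an alternative chosen after seeing the data. It held 1.05% of Jak2V617F and 5.83% of control cells, and is among the 17 clusters compared. Other alternatives were TMM and median-of-ratios factors, other minimums and mitochondrial limits, thinned cells, cells with no Xist UMI, lineage clusters or the highest doublet scores left out, and class-standardised sums (each class at its share in control). In these sums the clusters without a class name, 58.6% of Jak2V617F and 58.9% of control cells, were pooled with the plasma cell-like one. Differences in share among the pooled clusters were therefore not reweighted. Ratios were tested on simulated counts. Python 3.11.15, scanpy 1.11.5, scipy 1.17.1, edgeR 4.0.16 and DESeq2 1.42.0 (the last 2 for scaling factors only) were used. Coordinates are GENCODE vM21 on GRCm38 (mm10). Results of some listed genes are not reported here.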

Additional observations from a re-analysis of the deposited data

Results flagged for a closer look

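Among the 15 genes with the highest and the 15 with the lowest ratios, 9 had a ratio of at least 1.5-fold in the opposite direction between the libraries of the second background. Whether the effects differ was not tested, because each genotype is 1 library. The log2 ratio of the double mutant over Ikk2CA was -2.86 for Fos, -2.06 for Fosb, -2.15 for Egr1 and -2.46 for Klf2, where Jak2V617F over control gave 1.66, 1.94, 1.596 and 1.249. It was -0.96 for Rgs1, against 0.99. Among the histones it was -2.14 for Hist1h2ap and -0.61 for Hist1h4h, against 1.91 and 1.06. Among the globins it was -2.96 for Hbb-bs and -2.88 for Hba-a1, against 2.496 and 1.64. Ikk2CA had the highest level of each of these 9 genes among the 4 libraries.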

How the results depend on the processing

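No paired analysis was possible because each genotype has 1 library. The 25 genes at least 2-fold higher became 9 with a minimum of 50 CPM and 1008 with no minimum; the 38 at least 2-fold lower became 10 and 2368, and 22 with class-standardised sums. At 1.5-fold the 86 higher became 25 and 2332, and the 115 lower became 34 and 3740. These follow from how many genes are compared, or from the weights. Signs turned with all deposited barcodes for the globin list (-0.49), Hbb-bs (-0.30), Hba-a2 (-1.11) and Hba-a1 (-0.67); with class-standardised sums for stem cell genes (-0.034), late neutrophil genes (-0.26) and inflammatory mediators (0.055); with lineage clusters left out for late neutrophil genes (-0.74); with no minimum for T and NK cell genes (-0.041) and inflammatory mediators (0.24); and over cells with no Xist UMI for late neutrophil genes (-0.088), Ddx3y (-0.061), Kdm5d (-0.15), Eif2s3y (-0.36) and Tsix (0.081). The causes were not tested. Thinning to 2500 UMIs turned the log2 ratio of shares of Stat6 (-0.032), Cd48 (-0.015) and Procr (0.00365). At Leiden resolution 0.5, 8 of 16 shares of cells in a class left their interval at resolution 1, and 8 stayed within it. Of 78 named genes past 1.5-fold, 78 kept their direction with TMM and median-of-ratios factors and with class-standardised sums, which left 61 past 1.5-fold; over cells with no Xist UMI 74 kept it and 66 stayed past 1.5-fold. Class-standardised sums also ended the 1.5-fold call of Cish (0.54), Tnfaip2 (0.57), Flt3 (-0.53) and Cd52 (-0.52). Intervals cover counting error only, and the spread between mice behind each ratio was not measured.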
